A study of Danio rerio with 12 samples.

Results

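The response of H2A.Z-mCherry zebrafish embryos to 5-aza-2'-deoxycytidine (5AzadC) was measured by total RNA sequencing in 6 of the 12 libraries of the study. In 3 of them the embryos had received 5AzadC at 100 µM, and in the other 3 they had received 0.1% DMSO, in each case from shortly after the eggs were laid. Every gene with enough counts was taken, which gave 12293 of the 32520 genes in the table. The 6 libraries came from whole embryos at 12 hours post fertilisation (hpf), kept at about 50 to a well of 5 mL, and all carried the genotype that the labels class as H2A.Z overexpression and the titles as H2A.ZmCherry, a fusion of the histone variant H2A.Z with the red fluorescent protein mCherry. Not given in the sources used here were the promoter, the insertion site and the level of the transgene, and whether the 5AzadC wells also held DMSO. The other 6 libraries, from wild-type embryos under the same treatments with AB/Tuebingen as the stock, are used only to show where the H2A.Z-mCherry response differed. The labels do not tie replicates to separate clutches or wells, so p-values measure the spread between the 12 libraries within their groups, which may be technical.

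5AzadC is a cytosine analogue that is built into DNA as it is copied and traps DNA methyltransferases there, so that newly copied DNA loses methylation and carries protein adducts that can call up the DNA damage response. H2A.Z replaces the core histone H2A at many promoters and enhancers, where it is loaded by the SRCAP and p400/Tip60 complexes and removed by INO80 and ANP32E. In zebrafish embryos it is known to sit at DNA that stays unmethylated. At this stage the embryo lays down somites, the neural plate and a covering epithelium.

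The 3 DMSO libraries held between 1182422 and 1660911 counts and the 3 5AzadC libraries between 1355337 and 1904063, and these ranges overlapped (exact permutation test, two-sided, p = 0.2, where 3 against 3 cannot go below 0.1). Levels are given as CPM, counts scaled to a common library size of 1e6, and 1 count equalled between 0.521 and 0.850 CPM. On the first principal component of the 6 libraries, with 43.4% of the variance, the DMSO libraries lay between -37.2 and -25.2 and the 5AzadC libraries between 28.0 and 39.5. The second, with 17.8%, set DMSO replicate 1 (38.7) apart from DMSO replicate 3 (-34.2), with the other 4 libraries between -4.24 and 1.39. Of 24 genes that match the defining tissue markers, 22 had a count in every one of the 6 libraries, from krt4 of the epidermis and apobb.1 of the yolk syncytial layer to MYOD1 of muscle and DDX4 of germ cells. The blood gene gata1a had no count in any of them, and the endoderm gene SOX17 had 6 counts in all.

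Among the genes that rose with 5AzadC in H2A.Z-mCherry were targets of p53 and genes of the ribosome and of energy supply. Among those that fell were genes for axon guidance receptors, collagens, cadherins, neuronal proteins and hox factors. By edgeR's quasi-likelihood test 2197 of the 12293 tested genes changed (17.9%), 1087 higher (8.84%) and 1110 lower (9.03%). Among them 315 were higher and 421 lower with an absolute log2 fold change of 1 or more. The median log2 fold change was 0.74 among the higher genes and -0.83 among the lower, against 0.02 over all tested genes. Genes called higher took between 16.1% and 16.7% of the counts of tested genes in the DMSO libraries and between 22.3% and 24.0% with 5AzadC. Genes called lower went from between 17.7% and 18.3% to between 11.2% and 12.0%. The genes were called from these same libraries, so the direction of both shifts was fixed by the calls and only their size is described. Leaving out 5AzadC replicate 2 lowered the number of called genes to 1389.

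**Figure D1:**
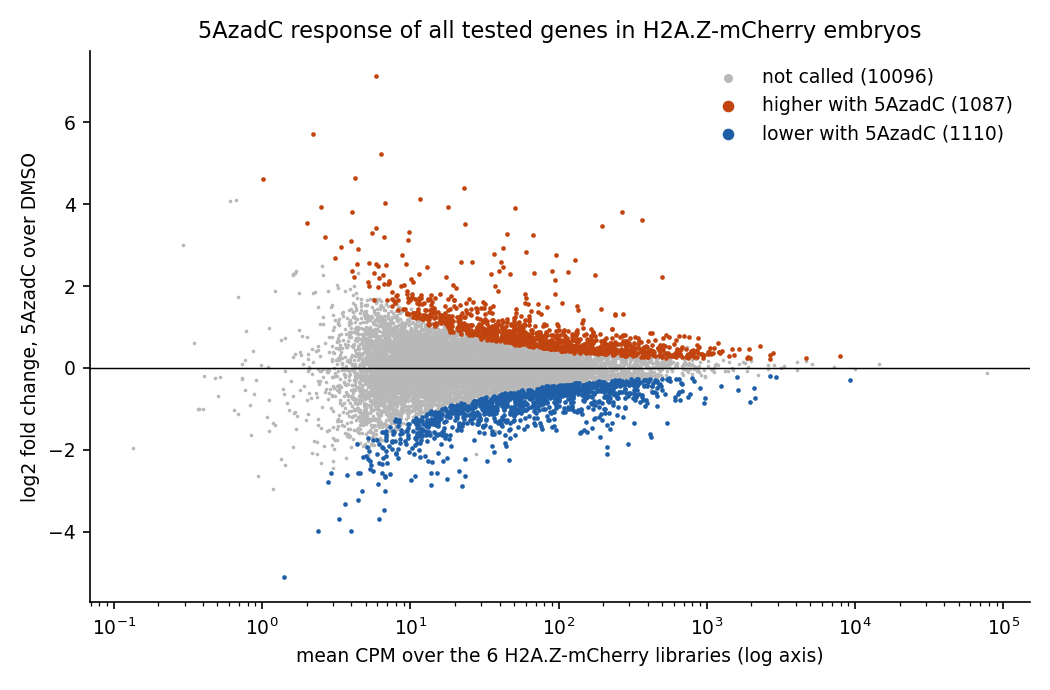
Log2 fold change of 5AzadC over DMSO in H2A.Z-mCherry (vertical axis) against the mean CPM over the 6 libraries (horizontal log axis) for the 12293 tested genes, with the 1087 genes called higher and the 1110 called lower in colour. Called genes of low level lie far from 0 on both sides, and those of high level lie near it.

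The share of genes called was higher at higher levels. In the fifth of tested genes with the lowest mean level, up to 9.03 CPM, 1.95% were called higher and 2.97% lower, with a median absolute log2 fold change of 2.15 among the called. In the fifth with the highest level, from 81.2 CPM, 20.1% were called higher and 19.5% lower, with a median of 0.52. The gene groups below were not matched for level with the tested genes they are set beside.

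The p53 targets had the highest median of the 42 groups of genes described here. Of 25 tested targets 19 rose (76%) and 0 fell, with a median log2 fold change of 1.31, where 8.84% of all tested genes rose. The ubiquitin ligase gene mdm2, which acts as a brake on the pathway, had 33.2, 44.1 and 36.5 CPM with DMSO and 169, 204 and 212 CPM with 5AzadC. This was a rise of 2.35 ± 0.16 (SE) on the log2 scale, with an edgeR adjusted p of 3.38e-18. SESN1, a stress protein that restrains growth signalling, had 28.4, 34.1 and 23.8 CPM with DMSO and 132, 149 and 172 CPM with 5AzadC, and rose by 2.37 ± 0.17 (adjusted p 1.54e-19). For both genes the groups did not overlap, as was the case for 16.9% of all tested genes in the higher direction.

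Other targets showed larger folds. PHLDA3, which holds back the survival kinase AKT, had 4.05, 5.88 and 9.35 CPM with DMSO and 77.5, 103 and 105 CPM with 5AzadC, a rise of 3.90 ± 0.32 on the log2 scale (adjusted p 2.23e-12). The ribosomal protein paralog rps27l had 12.2, 16.5 and 8.50 CPM with DMSO and 102, 138 and 124 CPM with 5AzadC, a rise of 3.25 ± 0.23 (adjusted p 3.56e-19). GADD45A (ENSDARG00000043581), a gene of growth arrest after DNA damage, had 3.24, 2.94 and 0 CPM with DMSO and 18.8, 40.7 and 42.2 CPM with 5AzadC, a rise of 3.93 ± 0.48 (adjusted p 9.63e-09). The transcription factor gene foxo3b had 62.4, 56.4 and 46.7 CPM with DMSO and 612, 724 and 700.3 CPM with 5AzadC, a rise of 3.62 ± 0.36 (adjusted p 0.00015). In each of these 4 genes every treated library lay above every control. For PHLDA3, GADD45A and foxo3b, named among the largest rises, this was a condition of the choice. Among targets that act in cell death bbc3, casp8, pmaip1 and BAX rose, with bbc3 at 2.83 ± 0.60 (adjusted p 0.0119), casp8 at 2.93 ± 0.49 (adjusted p 0.00084), pmaip1 at 1.81 ± 0.52 (adjusted p 0.00869) and BAX at 1.26 ± 0.20 (adjusted p 9.49e-07). The 6 targets without a call were APAF1, sesn2, BTG2, XPC, FDXR and POLK, between -0.25 and 0.84 on the log2 scale.

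Stress and interferon genes rose in smaller number. In the group of ATF4, oxidative and heat stress genes 9 of 31 rose (29.0%) and 0 fell. The share that rose was 8.84% over all tested genes and 20.1% in the fifth with the highest level. DDIT4, an inhibitor of the growth kinase mTOR, had 94.0, 94.6 and 80.7 CPM with DMSO and 173, 238 and 199.9 CPM with 5AzadC, a rise of 1.18 ± 0.13 (adjusted p 1.68e-11). The small heat shock protein gene HSPB1 had 448, 336 and 379.9 CPM with DMSO and 613, 744 and 665 CPM with 5AzadC, a rise of 0.80 ± 0.09 (adjusted p 1.85e-10). HSP90AA1, for an inducible chaperone, had 20.3, 40.6 and 31.4 CPM with DMSO and 103, 121 and 55.2 CPM with 5AzadC, a rise of 1.56 ± 0.24 (adjusted p 5.33e-07). In none of these 3 genes did the groups overlap, as was the case for 16.9% of all tested genes in the higher direction. Of 26 interferon and RNA sensing genes 9 were tested, and 3 of these rose. The ubiquitin-like gene isg15 had 4.86, 0 and 1.70 CPM with DMSO and 40.6, 58.3 and 31.8 CPM with 5AzadC, a rise of 4.41 ± 0.45 (adjusted p 9.83e-13). For ifit8 there were 22 counts with 5AzadC and 0 with DMSO, at least 6.1-fold higher against a floor of 3 counts over the group (adjusted p 0.00295). With DMSO isg15 and ifit8 were too low in either genotype to pass the filter on low counts, and they entered through 5AzadC libraries. For ifit8 these were the wild-type ones, at 11.2, 15.6 and 16.6 CPM. The share of 3 in 9 was thus fixed in part by the choice of tested genes. The call of isg20 (1.59 ± 0.42, adjusted p 0.00481) was lost without 5AzadC replicate 2 (adjusted p 0.28). The other 6 genes of that group, among them stat2 and IRF7, lay between -0.55 and 0.08 with no call.

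Most cytosolic ribosomal protein genes and part of the genes of translation initiation rose. Of 67 cytosolic ribosomal protein genes 53 rose (79.1%) and 0 fell, with a median log2 fold change of 0.37. The share that rose was 8.84% over all tested genes and 20.1% in the fifth with the highest level. Their summed level was 45450.3, 39700.4 and 43955 CPM with DMSO and 51953, 54863 and 50914 CPM with 5AzadC. RPL19 of the large subunit had 671, 614 and 693 CPM with DMSO and 1035, 1158 and 1081 CPM with 5AzadC, a rise of 0.73 ± 0.08 (adjusted p 7.81e-11). RPL11, which also binds Mdm2 when it is free of the ribosome, had 587, 541 and 564 CPM with DMSO and 900.0, 1029 and 908 CPM with 5AzadC, a rise of 0.75 ± 0.09 (adjusted p 8.59e-11). The groups did not overlap for either gene. Of 55 genes named for translation initiation, a group that also holds inhibitors such as the eIF4E-binding proteins, 23 rose (41.8%) and 0 fell. EIF1, which helps to find the start codon, had 144, 146 and 114 CPM with DMSO and 263, 241 and 225 CPM with 5AzadC, a rise of 0.84 ± 0.12 (adjusted p 1.03e-07), and the helicase gene eif4a1a rose by 0.46 ± 0.08 (adjusted p 2.32e-06). Of 49 mitochondrial ribosomal protein genes 2 rose (4.08%), a share below that over all tested genes, with a median of 0.34. Neither passed with DESeq2, nor on leaving out DMSO replicate 3 or any 1 of the 5AzadC libraries. Without 5AzadC replicate 2 the count of cytosolic ribosomal protein genes was 35.

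Part of the genes of oxidative phosphorylation and of the proteasome also rose, and a smaller share of those of splicing. Of 68 genes for subunits of the respiratory chain and ATP synthase 28 rose and 0 fell, with a median of 0.58. The ATP synthase gene atp5mc3b had 241, 155 and 201 CPM with DMSO and 338, 370.0 and 326 CPM with 5AzadC, a rise of 0.80 ± 0.11 (adjusted p 3.42e-08). COX7C of cytochrome c oxidase had 33.2, 32.3 and 26.3 CPM with DMSO and 54.2, 71.3 and 67.7 CPM with 5AzadC, a rise of 1.07 ± 0.21 (adjusted p 5.45e-05). Of 35 proteasome subunit genes 17 rose and 1 fell, with a median of 0.58. PSMB3 of the core particle had 13.8, 34.7 and 34.00 CPM with DMSO and 73.7, 74.8 and 79.1 CPM with 5AzadC, a rise of 1.45 ± 0.24 (adjusted p 1.94e-06). Of 58 spliceosome and SR protein genes 15 rose (25.9%), with a median of 0.26. Over all tested genes 8.84% rose, and 20.1% in the fifth with the highest level. Among the 15 were SNRPE of the Sm ring at 1.05 ± 0.25 (adjusted p 0.00131) and LSM7 at 1.04 ± 0.26 (adjusted p 0.00249). Without 5AzadC replicate 2 the counts of rises in the 3 groups were 12, 10 and 9, and without DMSO replicate 3 the count for oxidative phosphorylation was 13. The call of the 1 lower proteasome gene was lost on leaving out any 1 library but DMSO replicate 2.

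**Figure D2:**
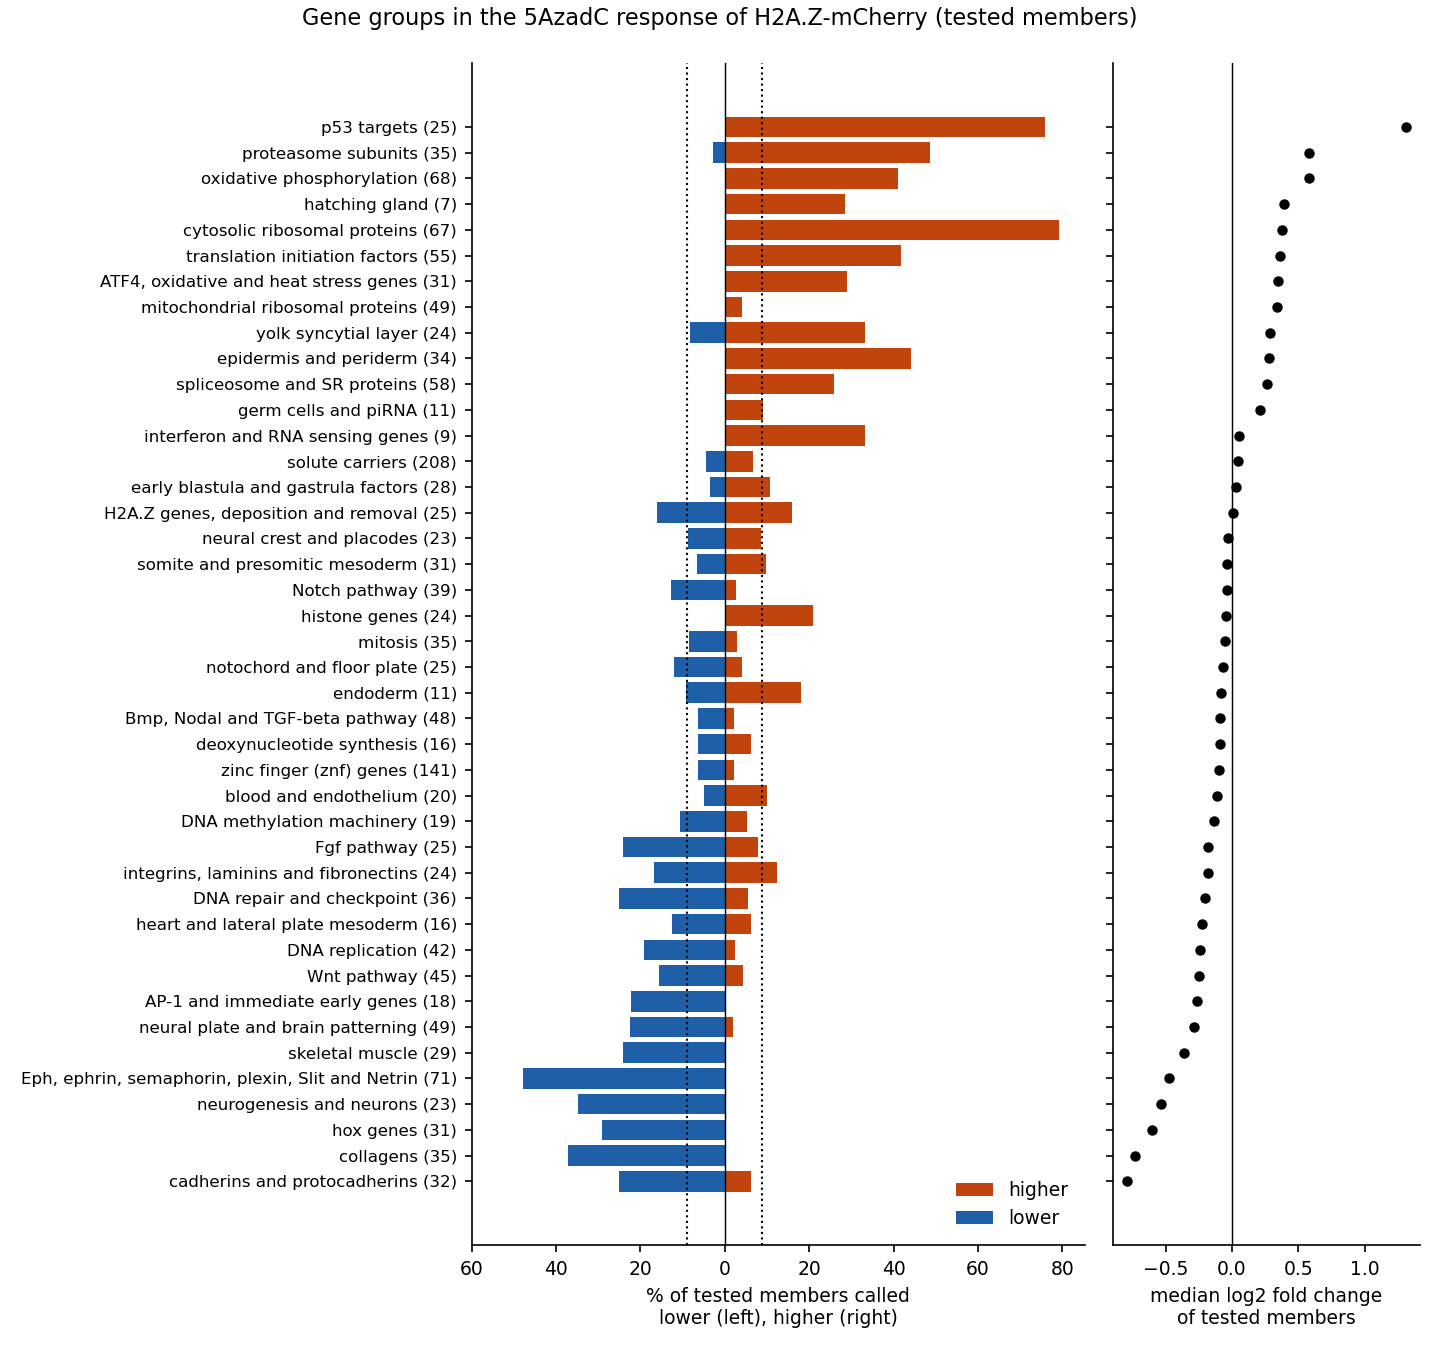
Share of the tested members of each gene group called lower (left) or higher (right) with 5AzadC in H2A.Z-mCherry, with dotted lines at the shares over all tested genes (9.03% and 8.84%), and the median log2 fold change of the members (right panel). The number of tested members is in parentheses. Groups are ordered by their median, from p53 targets at 1.31 to cadherins and protocadherins at -0.79.

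Guidance receptors and their ligands, which steer growing axons and migrating cells, had 34 calls, all of them lower. Of 71 Eph, ephrin, semaphorin, plexin, Slit and Netrin pathway genes 34 fell (47.9%) and 0 rose, with a median log2 fold change of -0.47. The share that fell was 9.03% over all tested genes. The semaphorin receptor gene PLXNA3 had 842, 674 and 785 CPM with DMSO and 330.4, 259 and 321 CPM with 5AzadC, a log2 fold change of -1.34 ± 0.10 (adjusted p 5.44e-19). Its relative PLXNA2 had 235, 214 and 212 CPM with DMSO and 91.8, 70.7 and 70.3 CPM with 5AzadC, a log2 fold change of -1.52 ± 0.14 (adjusted p 3.46e-14). DCC, a receptor for Netrin, had 43.8, 31.2 and 47.6 CPM with DMSO and 4.52, 7.07 and 7.29 CPM with 5AzadC, a log2 fold change of -2.64 ± 0.34 (adjusted p 2.73e-09). The ephrin receptor gene epha4b had 50.2, 67.6 and 59.5 CPM with DMSO and 13.5, 11.8 and 17.2 CPM with 5AzadC, a log2 fold change of -2.05 ± 0.27 (adjusted p 1.23e-08). In each of these 4 genes the highest treated library lay below the lowest control, as it did in 16.3% of all tested genes. DCC is also among the largest falls, which were chosen with this as a condition. The Netrin gene NTN1 (ENSDARG00000022531), made by the floor plate, was at -1.41 ± 0.29 (adjusted p 0.000193).

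Part of the genes of the extracellular matrix and of cell adhesion fell, and a few rose. Of 35 collagen genes 13 fell and 0 rose, with a median of -0.73. COL5A1, of a fibre-forming collagen, had 159, 132 and 105 CPM with DMSO and 51.9, 46.5 and 47.4 CPM with 5AzadC, a log2 fold change of -1.44 ± 0.18 (adjusted p 1.91e-09). Its partner chain COL5A2 had 105, 109 and 86.7 CPM with DMSO and 50.4, 23.6 and 41.1 CPM with 5AzadC, a log2 fold change of -1.40 ± 0.22 (adjusted p 6.09e-07). A gene named col7a1l (ENSDARG00000069692) had 296, 333 and 379.9 CPM with DMSO and 106, 73.1 and 85.4 CPM with 5AzadC, a log2 fold change of -1.94 ± 0.12 (adjusted p 2.07e-22). In these 3 genes the treated and control libraries did not overlap. Among 24 integrin, laminin and fibronectin genes 4 fell (16.7%) and 3 rose (12.5%), against 9.03% and 8.84% over all tested genes. LAMA5 was at -0.78 ± 0.08 (adjusted p 1.42e-11) and ITGA9 at -1.41 ± 0.16 (adjusted p 1.5e-10), while the laminin chain gene lamc1 was at 0.38 ± 0.08 (adjusted p 0.000302). The count of rises in this group was 1 with DESeq2, without the filter on low counts, and without DMSO replicate 1 or 5AzadC replicate 2. No alternative gave more than 2 rises there. Of 32 cadherin and protocadherin genes 8 fell and 2 rose. CDH7 was at -1.28 ± 0.23 (adjusted p 1.5e-05) and PCDH7 at -1.28 ± 0.26 (adjusted p 0.000153). The epithelial cadherin gene cdh1 moved the other way, with 224, 216 and 214 CPM with DMSO and 299, 374 and 353 CPM with 5AzadC, a rise of 0.65 ± 0.11 (adjusted p 2.88e-06).

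**Figure D3:**
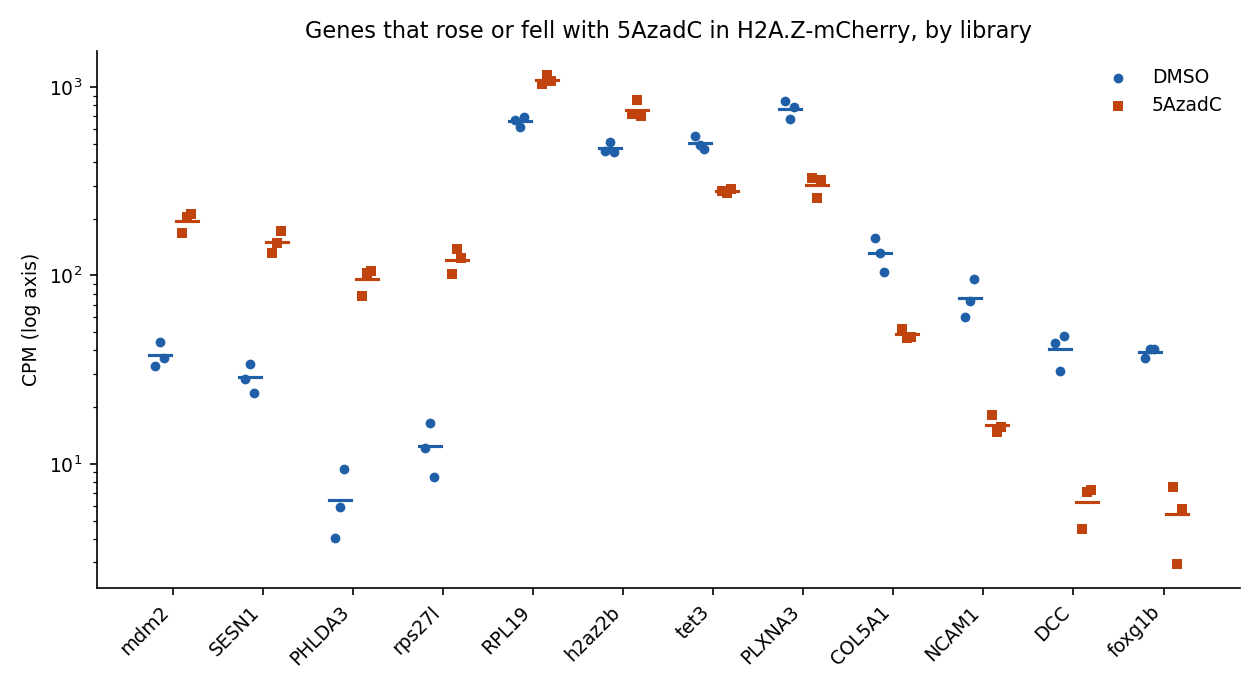
CPM (vertical log axis) of 12 genes in the 3 DMSO libraries (circles) and the 3 5AzadC libraries (squares) of H2A.Z-mCherry, with short lines at the group means. In each of the 12 genes the groups do not overlap, with 6 genes higher and 6 lower with 5AzadC. For PHLDA3 this was a condition of its choice. DCC and foxg1b are among the largest falls, for which it was a condition too. Among all tested genes the groups did not overlap in 16.9% in the higher and in 16.3% in the lower direction. NCAM1 is ENSDARG00000056181.

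Neural genes fell in part. Of 23 genes of neurogenesis and neurons 8 fell (34.8%) and 0 rose, where 9.03% of all tested genes fell and 8.84% rose. The adhesion gene NCAM1 (ENSDARG00000056181) had 59.97, 72.9 and 96.0 CPM with DMSO and 18.1, 14.7 and 15.6 CPM with 5AzadC, a log2 fold change of -2.24 ± 0.25 (adjusted p 4.27e-11), and the neuronal transcription factor gene MYT1 (ENSDARG00000102879) had 30.8, 23.5 and 22.9 CPM with DMSO and 5.27, 4.71 and 3.12 CPM with 5AzadC, a log2 fold change of -2.56 ± 0.45 (adjusted p 8.66e-06). Of 49 genes of the neural plate and brain patterning 11 fell (22.4%) and 1 rose (2.04%). That rise was lost on leaving out any 1 library but DMSO replicate 1. The forebrain factor gene foxg1b had 36.5, 40.6 and 40.8 CPM with DMSO and 7.53, 2.95 and 5.73 CPM with 5AzadC, a log2 fold change of -2.87 ± 0.39 (adjusted p 2.14e-08). PAX2 (ENSDARG00000032578), of the midbrain-hindbrain boundary, had 28.4, 12.3 and 25.5 CPM with DMSO and 3.01, 3.54 and 6.25 CPM with 5AzadC, a log2 fold change of -2.28 ± 0.45 (adjusted p 6.97e-05). PAX6 (ENSDARG00000103379), of eye and forebrain, had 76.2, 54.1 and 66.3 CPM with DMSO and 24.8, 26.5 and 38.0 CPM with 5AzadC, a log2 fold change of -1.11 ± 0.24 (adjusted p 0.000313). Another gene named PAX6 (ENSDARG00000045936) had 101, 166 and 106 counts with DMSO and 120, 114 and 126 with 5AzadC, not scaled for library size. The neural progenitor gene SOX3 was at -0.03 with no call (adjusted p 0.943), and the groups overlapped. The summed level of the neural plate group ran from 2296 to 2441 CPM with DMSO and from 1986 to 2036 CPM with 5AzadC. In whole embryos, fewer cells of a type and less RNA per cell cannot be told apart. Without 5AzadC replicate 2 the count for neurons was 5.

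Hox genes, which give cells their position along the body axis, fell in 9 of 31 tested cases (29.0%) and rose in 0. Their median was -0.60, and 9.03% of all tested genes fell. HOXD3 had 62.4, 60.5 and 59.5 CPM with DMSO and 21.8, 27.1 and 26.0 CPM with 5AzadC, a log2 fold change of -1.27 ± 0.24 (adjusted p 3.73e-05), and HOXB2 had 34.8, 25.9 and 34.8 CPM with DMSO and 14.3, 13.0 and 14.1 CPM with 5AzadC, a log2 fold change of -1.19 ± 0.31 (adjusted p 0.00365). HOXC6 (ENSDARG00000070343) had 67.3, 68.8 and 94.3 CPM with DMSO and 43.6, 33.6 and 45.8 CPM with 5AzadC, a log2 fold change of -0.90 ± 0.20 (adjusted p 0.000723). In wild type the same gene had 55.0, 61.0 and 48.2 CPM with DMSO and 80.4, 64.2 and 53.6 CPM with 5AzadC, and the interaction test called the difference between the responses (-1.17 ± 0.29, adjusted p 0.00798). HOXC6 was the only 1 of the 31 hox genes with an interaction call. In wild type 9 of the 31 also fell, with a median of -0.47, where 11.7% of all tested genes fell. Without 5AzadC replicate 2 the count of hox genes was 5.

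Part of the muscle genes fell. Of 29 tested genes 7 fell and 0 rose, with a median of -0.36. The genes called were both named TTN, for the giant sarcomere protein, both named RYR1, for the calcium release channel, and MEF2C (ENSDARG00000029764), smyhc2 and DES. One TTN (ENSDARG00000028213) had 2415, 2549 and 2544 CPM with DMSO and 1582, 1187 and 1478 CPM with 5AzadC, a log2 fold change of -0.82 ± 0.08 (adjusted p 3.17e-13). One RYR1 (ENSDARG00000011422) had 42.1, 36.4 and 30.6 CPM with DMSO and 7.53, 5.89 and 5.73 CPM with 5AzadC, a log2 fold change of -2.52 ± 0.34 (adjusted p 2.2e-08), and its groups did not overlap. The myogenic factor genes MYOD1 and MYF5 were at 0.03 and 0.01 with no call. The group's summed level ran from 6075 to 6490 CPM with DMSO and from 3534 to 4549 CPM with 5AzadC. Both TTN genes held a large part of this sum and of its fall. Their means were 2503 and 2640 CPM with DMSO and 1416 and 1578 CPM with 5AzadC. The sum therefore does not show a fall across the group. Without DMSO replicate 1 the count was 4. In the somite and presomitic mesoderm group 3 of 31 genes rose (9.68%) and 2 fell (6.45%), with a median of -0.04. Over all tested genes 8.84% rose and 9.03% fell. The count of falls in the somite group was 1 without 5AzadC replicate 1 and 0 without DMSO replicate 2 or 3 or 5AzadC replicate 2 or 3.

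Part of the genes of the outer epithelium rose. Of 34 epidermis and periderm genes 15 rose (44.1%) and 0 fell, with a median of 0.28, where 8.84% of all tested genes rose. The annexin gene anxa1b had 55.9, 59.4 and 72.2 CPM with DMSO and 140.0, 146 and 111 CPM with 5AzadC, a rise of 1.08 ± 0.17 (adjusted p 7.33e-07). The keratin gene krt8 had 117, 124 and 147 CPM with DMSO and 214, 245 and 205 CPM with 5AzadC, a rise of 0.78 ± 0.13 (adjusted p 2.92e-06). The keratin gene krt4 was at 0.12 with no call (adjusted p 0.371). The group's summed level ran from 6836 to 8058 CPM with DMSO and from 8029 to 10005 CPM with 5AzadC, and these ranges overlapped. The part of such shifts between tissues in the other results was not tested. In the yolk syncytial layer, which feeds lipid from the yolk to the embryo, 8 of 24 genes rose (33.3%) and 2 fell (8.33%). The share of falls was below the 9.03% over all tested genes. The apolipoprotein gene apoeb had 927, 903 and 950.3 CPM with DMSO and 1175, 1373 and 1369 CPM with 5AzadC, a rise of 0.50 ± 0.08 (adjusted p 2.11e-06), and apobb.2 had 77.0, 63.5 and 48.4 CPM with DMSO and 27.1, 28.9 and 40.1 CPM with 5AzadC, a log2 fold change of -0.96 ± 0.21 (adjusted p 0.000372). The count of rises in the yolk syncytial layer was 3 without 5AzadC replicate 2 and 5 without DMSO replicate 2 or 3, and that of falls was 1 without DMSO replicate 1 or 3 or 5AzadC replicate 3.

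The genes of H2A.Z and of its handling held calls in each direction. Of 25 tested genes 4 rose (16%) and 4 fell (16%), against 8.84% and 9.03% over all tested genes. In the fifth of tested genes with the highest level the shares were 20.1% and 19.5%. The count of rises was 2 without DMSO replicate 1, DMSO replicate 3 or 5AzadC replicate 2, and that of falls was 2 without DMSO replicate 3, 5AzadC replicate 1 or 5AzadC replicate 3. The H2A.Z gene h2az2b had 455, 510.2 and 454 CPM with DMSO and 719, 850.2 and 705 CPM with 5AzadC (adjusted p 1.05e-08), and H2AZ2 had 34.8, 52.9 and 37.4 CPM with DMSO and 61.7, 77.8 and 75.5 CPM with 5AzadC (adjusted p 0.00456). Treated libraries lay above the controls in both genes, and reads of the transgene may count towards either. EP400, the motor subunit of the p400/Tip60 loading complex, had 503, 528 and 578 CPM with DMSO and 327, 408 and 405 CPM with 5AzadC, a log2 fold change of -0.49 ± 0.09 (adjusted p 4.52e-05). INO80, the motor of the complex that removes H2A.Z, had 293, 349 and 343 CPM with DMSO and 254, 228 and 207 CPM with 5AzadC, a log2 fold change of -0.52 ± 0.11 (adjusted p 0.000261). The other calls were ZNHIT1 of the SRCAP complex at 1.73 ± 0.53 (adjusted p 0.0146), kat5b, the Tip60 acetyltransferase, at 0.56 ± 0.21 (adjusted p 0.0464), TRRAP at -0.25 ± 0.08 (adjusted p 0.0256) and BRD8 at -0.49 ± 0.17 (adjusted p 0.0289), and the libraries of BRD8 overlapped. The loading motor gene srcap was at -0.17 and the H2A.Z chaperone gene ANP32E at 0.01, neither of them called. Among 24 other histone genes 5 rose, which encode the replacement variant H3.3 in 3 cases, H2A.X and macroH2A, with h3f3d at 0.79 ± 0.10 (adjusted p 1.49e-09), H3-3B at 1.02 ± 0.15 (adjusted p 3.36e-07) and h2ax at 0.62 ± 0.11 (adjusted p 2.13e-05).

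Of 19 genes of the DNA methylation machinery, the target of the drug, 2 fell (10.5%) and 1 rose (5.26%). Over all tested genes the shares were 9.03% and 8.84%. The maintenance methyltransferase gene DNMT1 had 244, 299 and 296 CPM with DMSO and 208, 171 and 181 CPM with 5AzadC, a log2 fold change of -0.59 ± 0.11 (adjusted p 5.23e-05). The dioxygenase gene tet3, which oxidises methylcytosine, had 551, 493 and 471 CPM with DMSO and 281, 275 and 286 CPM with 5AzadC, a log2 fold change of -0.85 ± 0.10 (adjusted p 5.33e-11). In both genes every treated library lay below every control. The third was TDG (ENSDARG00000013004), a glycosylase of active demethylation, at 0.43 ± 0.14 (adjusted p 0.0204), and this call was lost without DMSO replicate 1, 5AzadC replicate 2 or 5AzadC replicate 3 (adjusted p up to 0.097). UHRF1, which brings DNMT1 to newly copied DNA, had 218, 213 and 178 CPM with DMSO and 208, 192 and 213 CPM with 5AzadC, and the groups overlapped (adjusted p 0.979). In wild type UHRF1 had 248, 289 and 263 CPM with DMSO and 119, 142 and 126 CPM with 5AzadC, and the difference between the responses was 1.06 ± 0.17 on the log2 scale (interaction adjusted p 8.03e-06).

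Of 42 DNA replication genes 8 fell (19.0%) and 1 rose (2.38%), the latter PCNA, the clamp of the replication fork. Over all tested genes 9.03% fell and 8.84% rose, and 19.5% fell in the fifth with the highest level. The helicase gene MCM7 had 818, 714 and 801 CPM with DMSO and 515, 546 and 481 CPM with 5AzadC, a log2 fold change of -0.60 ± 0.09 (adjusted p 1.17e-07). POLA1, for the polymerase that starts new strands, had 199, 216 and 217 CPM with DMSO and 141, 114 and 97.4 CPM with 5AzadC, a log2 fold change of -0.85 ± 0.13 (adjusted p 5.16e-07). In wild type 26 of the 42 replication genes fell, where 11.7% of all tested genes did. For 5 of the 42, MCM2, MCM3, MCM4, MCM5 and PRIM2, the interaction test called a higher response in H2A.Z-mCherry. MCM2 was at -0.39 ± 0.10 in H2A.Z-mCherry and -1.22 in wild type (interaction adjusted p 5.29e-05). In DNA repair and checkpoint 9 of 36 genes fell (25%) and 2 rose (5.56%). Both kinase genes that sense damage fell, with log2 fold changes of -1.07 ± 0.17 for ATM (adjusted p 5.29e-07) and -0.996 ± 0.18 for ATR (adjusted p 1.89e-05), as did TP53BP1, an adaptor at breaks, at -0.97 ± 0.15 (adjusted p 1.18e-06). Of 35 genes of mitosis 3 fell (8.57%) and 1 rose (2.86%), against 9.03% and 8.84% over all tested genes. Among these mitosis genes there were 6 falls without 5AzadC replicate 1 and 2 rises without DMSO replicate 1. Without DMSO replicate 3 the count of lower DNA replication genes was 5.

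Developmental signalling pathways had calls in both directions. In the Fgf pathway 6 of 25 genes fell (24%) and 2 rose (8%), against 9.03% and 8.84% over all tested genes. The count of rises there was 1 whichever of the 6 libraries was left out. The receptor gene FGFR2 had 514, 463 and 493 CPM with DMSO and 303, 261 and 291 CPM with 5AzadC, a log2 fold change of -0.78 ± 0.10 (adjusted p 7.91e-10). Its relative FGFR3 had 177, 175 and 220.1 CPM with DMSO and 88.0, 101 and 90.1 CPM with 5AzadC, a log2 fold change of -1.03 ± 0.14 (adjusted p 1.74e-08). The other receptor calls were the 2 genes named FGFR1, also lower. In the Wnt pathway 7 of 45 fell (15.6%) and 2 rose (4.44%). The rises were CTNNB1, for beta-catenin, at 0.41 ± 0.08 (adjusted p 3.55e-05) and the receptor gene FZD7 (ENSDARG00000027589) at 0.64 ± 0.14 (adjusted p 0.000298), and the receptor gene FZD5 was at -1.63 ± 0.35 (adjusted p 0.000285). The lower count for Wnt was 4 without DMSO replicate 3, 5AzadC replicate 2 or 5AzadC replicate 3. In the Notch pathway 5 of 39 fell (12.8%) and 1 rose (2.56%), against 9.03% and 8.84% over all tested genes. Its receptor gene NOTCH1 (ENSDARG00000052094) was at -0.68 ± 0.09 (adjusted p 3.28e-08). In the Bmp, Nodal and TGF-beta pathway 3 of 48 fell and 1 rose, shares below those over all tested genes. The rise in the Notch pathway was lost without DMSO replicate 1 or 2 or 5AzadC replicate 2 or 3, and that in the Bmp, Nodal and TGF-beta pathway on leaving out any 1 DMSO library or 5AzadC replicate 3. The falls in the latter pathway came to 1 without DMSO replicate 3 or 5AzadC replicate 2.

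Among the largest rises, brsk1a, a kinase gene, had 61 counts with 5AzadC and 0 with DMSO, at least 16.9-fold higher (adjusted p 7.67e-06). The gene rpz5 had 61 counts against 1, a ratio of 50.7 with a 95% interval of 8.76 to 2035 from counting error. EXO5, a single-strand exonuclease gene, had 5.67, 2.35 and 3.40 CPM with DMSO and 27.8, 53.03 and 47.9 CPM with 5AzadC, a rise of 3.53 ± 0.40 (adjusted p 4.14e-11). RBL2, a relative of the retinoblastoma protein, had 41.3, 35.9 and 18.7 CPM with DMSO and 341, 368 and 375 CPM with 5AzadC, a rise of 3.48 ± 0.47 (adjusted p 0.00105), and the ubiquitin ligase gene RNF14 (ENSDARG00000078683) had 47.8, 34.7 and 23.8 CPM with DMSO and 455, 521 and 516 CPM with 5AzadC, a rise of 3.81 ± 0.52 (adjusted p 0.00119). These 5 genes were picked from those whose treated and control libraries did not overlap, so their separation was fixed by the choice. Among the largest falls, the potassium channel gene KCND2 had 19.4, 6.47 and 11.0 CPM with DMSO and 0.753, 1.18 and 1.04 CPM with 5AzadC, a log2 fold change of -3.48 ± 0.65 (adjusted p 3.08e-05). The RNA-binding protein gene CELF2 had 11.3, 11.2 and 9.35 CPM with DMSO and 1.51, 1.77 and 1.04 CPM with 5AzadC, a log2 fold change of -2.83 ± 0.74 (adjusted p 0.00329), and the semaphorin receptor gene plxnb2b had 33.2, 16.5 and 23.8 CPM with DMSO and 4.52, 1.18 and 4.17 CPM with 5AzadC, a log2 fold change of -2.87 ± 0.49 (adjusted p 5.5e-06). These genes were taken for the size of their change, so their folds are a description.

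The wild-type embryos were used to ask where the H2A.Z-mCherry response stood apart. In wild type 2745 genes changed (22.3%). Of the genes higher in H2A.Z-mCherry 50.3% were also higher in wild type, which was 41.7% of those higher in wild type. Of the genes lower in H2A.Z-mCherry 55.3% were also lower in wild type, which was 42.8% of those lower in wild type. The 2 comparisons share no library. The interaction test in the same edgeR fit called 461 genes (3.75%), 233 with a higher response in H2A.Z-mCherry (1.9%) and 228 with a lower one (1.85%). Of the genes that passed in H2A.Z-mCherry but had no call in wild type, 525 were higher and 478 lower with the drug, and 71 and 48 of these passed the interaction test. For the rest a difference between genotypes was not shown.

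**Figure D4:**
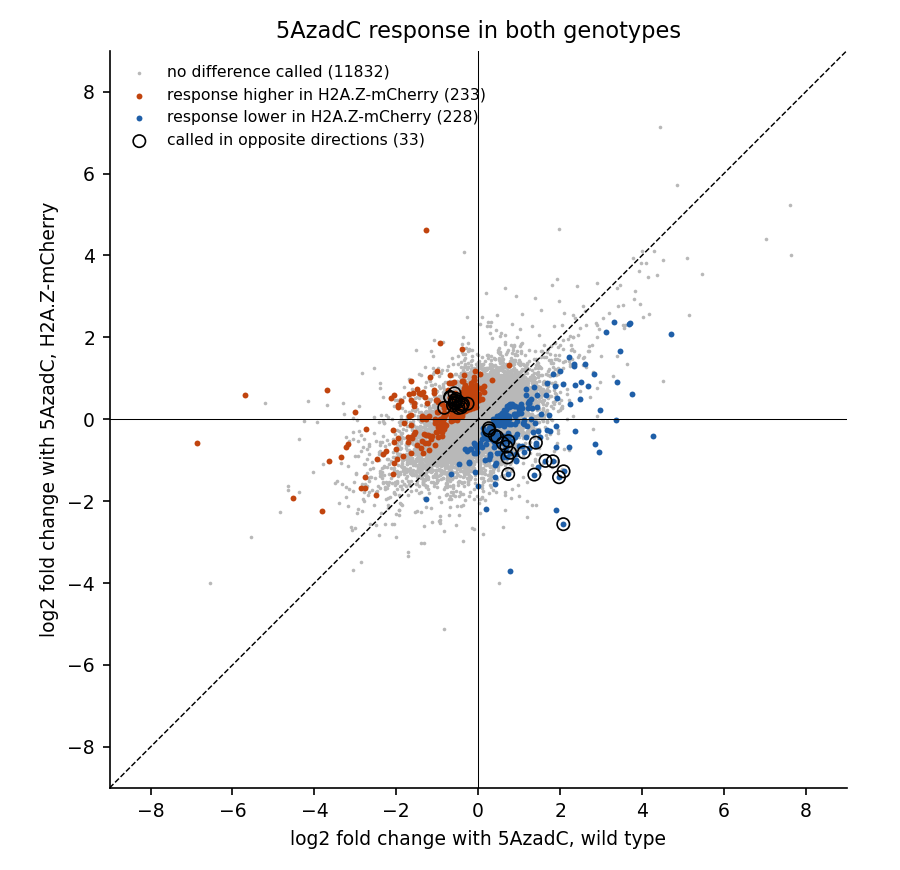
Log2 fold change with 5AzadC in wild type (horizontal axis) and in H2A.Z-mCherry (vertical axis) for the 12293 tested genes, with the dashed line at equal responses. Colour marks the 233 genes with a higher and the 228 with a lower response in H2A.Z-mCherry by the interaction test, and rings mark the 33 genes called in opposite directions, 15 higher and 18 lower in H2A.Z-mCherry.

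Immediate early genes, which are switched on within minutes of many stimuli, held genes whose responses differed between the genotypes. Of 18 tested AP-1 and immediate early genes 0 rose and 4 fell (22.2%) in H2A.Z-mCherry, where 9.03% of all tested genes fell. In wild type 8 rose, where 10.7% of all tested genes did, and 1 fell. This list does not hold fosaa, NR4A1 or NR4A3, which are given below. The falls of the list in H2A.Z-mCherry were both genes named JUNB, ier2b and EGR2. The call of EGR2 was lost without DMSO replicate 1, 5AzadC replicate 2 or 5AzadC replicate 3 (adjusted p up to 0.15). The interaction test called a lower response in H2A.Z-mCherry for 6 of them, both genes named JUNB, FOS, FOSL1, ier2a and ier2b. JUNB (ENSDARG00000074378), an AP-1 subunit, had 30.0, 17.0 and 24.6 CPM with DMSO and 2.26, 0.589 and 8.33 CPM with 5AzadC, a log2 fold change of -2.56 ± 0.49 (adjusted p 4.62e-05). In wild type it had 5.06, 2.88 and 5.21 CPM with DMSO and 23.8, 9.88 and 22.2 CPM with 5AzadC (interaction -4.64 ± 0.70, adjusted p 2.82e-06). FOS, its partner in AP-1, had 40.5, 20.6 and 26.3 CPM with DMSO and 36.1, 48.9 and 45.8 CPM with 5AzadC in H2A.Z-mCherry with overlapping groups (adjusted p 0.0834), and 5.06, 9.20 and 4.56 CPM with DMSO and 93.8, 71.6 and 97.9 CPM with 5AzadC in wild type (interaction -3.16 ± 0.40, adjusted p 4.45e-08).

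A difference was also called for fosaa, which had 13.0, 8.23 and 13.6 CPM with DMSO and 0.753, 0.589 and 1.04 CPM with 5AzadC in H2A.Z-mCherry, a log2 fold change of -3.70 ± 0.81 (adjusted p 0.000402), and 6.96, 0.575 and 4.56 CPM with DMSO and 6.70, 6.59 and 7.39 CPM with 5AzadC in wild type (interaction -4.48 ± 1.07, adjusted p 0.00615). For ier2b the values were 28.4, 7.05 and 22.1 CPM with DMSO and 3.76, 5.30 and 3.12 CPM with 5AzadC in H2A.Z-mCherry and 14.5, 10.4 and 17.6 CPM with DMSO and 11.9, 13.2 and 24.0 CPM with 5AzadC in wild type (interaction -2.38 ± 0.64, adjusted p 0.0179). Already without the drug the H2A.Z-mCherry libraries of both JUNB genes, FOS and fosaa lay above every wild-type DMSO library, and for ier2b they overlapped them. Whether this difference at the start has a part in the differences between the responses was not tested. The nuclear receptor genes NR4A1 and NR4A3 fell in H2A.Z-mCherry, with log2 fold changes of -2.67 ± 0.77 (adjusted p 0.00927) and -2.65 ± 0.76 (adjusted p 0.00882), and the first call was lost without 5AzadC replicate 1 or 2 (adjusted p up to 0.080), the second without DMSO replicate 3 or 5AzadC replicate 1 (adjusted p up to 0.054). For neither gene did the interaction test call a difference from wild type (adjusted p 0.31 for NR4A1 and 0.20 for NR4A3).

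**Figure D5:**
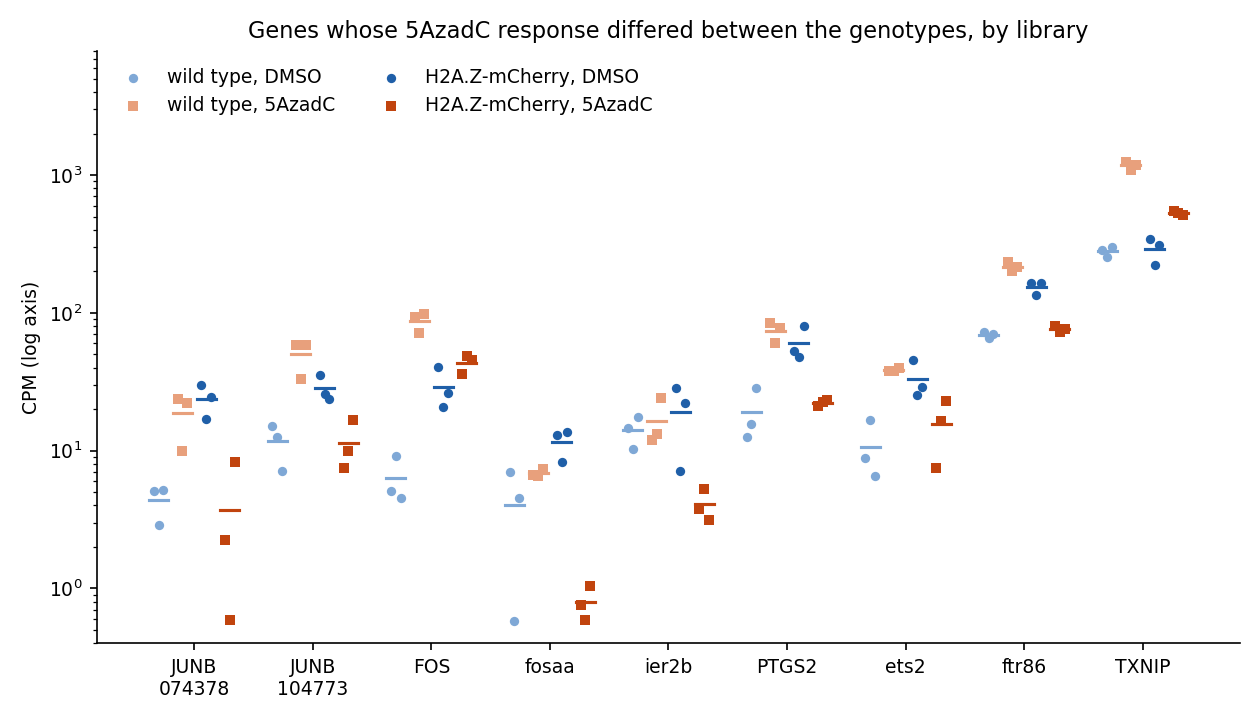
CPM (vertical log axis) of 9 genes in the 3 libraries of each of the 4 groups, with circles for DMSO, squares for 5AzadC, light colours for wild type, dark colours for H2A.Z-mCherry and short lines at the means. For both JUNB genes (marked by the end of their identifiers), PTGS2, ets2 and ftr86 the drug goes with a higher level in wild type and a lower level in H2A.Z-mCherry, and in these 5 genes and FOS the H2A.Z-mCherry DMSO libraries start above those of wild type. The call of ets2 in H2A.Z-mCherry (edgeR adjusted p 0.0173) was lost without DMSO replicate 1, 5AzadC replicate 1 or 5AzadC replicate 2 (adjusted p up to 0.18).

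Genes of inflammation and stress were also among those with a lower response in H2A.Z-mCherry. PTGS2 (ENSDARG00000010276), which makes prostaglandin precursors, had 52.7, 47.6 and 80.7 CPM with DMSO and 21.1, 22.4 and 23.4 CPM with 5AzadC in H2A.Z-mCherry, a log2 fold change of -1.41 ± 0.25 (adjusted p 1.32e-05), and 12.6, 15.5 and 28.7 CPM with DMSO and 84.9, 60.1 and 77.6 CPM with 5AzadC in wild type (interaction -3.39 ± 0.36, adjusted p 1.41e-10). The trim family gene ftr86 had 165, 135 and 165 CPM with DMSO and 79.8, 73.1 and 76.0 CPM with 5AzadC, a log2 fold change of -1.02 ± 0.14 (adjusted p 4.54e-08), and 72.7, 65.6 and 70.4 CPM with DMSO and 236, 200.0 and 215 CPM with 5AzadC in wild type (interaction -2.66 ± 0.20, adjusted p 2.49e-17). TXNIP (ENSDARG00000036107), an inhibitor of thioredoxin, rose in both genotypes, with 343, 224 and 313 CPM with DMSO and 546, 533 and 514 CPM with 5AzadC in H2A.Z-mCherry and 288, 252 and 301 CPM with DMSO and 1246, 1097 and 1184 CPM with 5AzadC in wild type, and the rise was smaller in H2A.Z-mCherry (interaction -1.20 ± 0.14, adjusted p 8.99e-09). Of the p53 targets 6, which were mdm2, SESN1, TP53INP1, cdkn1a, BTG1 and BTG2, had a smaller response in H2A.Z-mCherry by the interaction test and 0 had a larger one. The cell cycle inhibitor gene cdkn1a was at 1.11 ± 0.26 in H2A.Z-mCherry and 2.84 in wild type (interaction adjusted p 0.00167), and mdm2 at 2.35 and 3.71 (interaction adjusted p 7.11e-05).

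Epithelial and ribosomal genes also had members with a smaller rise. Of the epidermis and periderm genes 8 had a lower response in H2A.Z-mCherry and 1 a higher one. The keratin gene cyt1l had 927, 792 and 861 CPM with DMSO and 929, 1063 and 859 CPM with 5AzadC in H2A.Z-mCherry, where the groups overlapped (adjusted p 0.258), and 603, 632 and 569 CPM with DMSO and 1409, 1128 and 1212 CPM with 5AzadC in wild type (interaction -0.91 ± 0.12, adjusted p 1.45e-07). The gene krt4 was at 0.12 and 0.88 in the same order (interaction adjusted p 0.000135). Of the cytosolic ribosomal protein genes 15 had a lower response in H2A.Z-mCherry and 0 a higher one, with RPL19 at -0.43 ± 0.12 (adjusted p 0.0221).

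Some genes rose in H2A.Z-mCherry and fell in wild type. The chromatin protein gene HMGB2 had 285, 334 and 294 CPM with DMSO and 454, 431 and 411 CPM with 5AzadC, a rise of 0.50 ± 0.11 (adjusted p 0.000478), and 328, 298 and 280.2 CPM with DMSO and 205, 262 and 155 CPM with 5AzadC in wild type (interaction 1.04 ± 0.16, adjusted p 6.05e-06). The gene asph (ENSDARG00000055945) had 229, 349 and 263 CPM with DMSO and 425, 416 and 472 CPM with 5AzadC, a rise of 0.64 ± 0.11 (adjusted p 4.26e-06), and 274, 262 and 276 CPM with DMSO and 168, 196 and 181 CPM with 5AzadC in wild type (interaction 1.21 ± 0.16, adjusted p 6.2e-08). EIF5A2, a translation factor gene, rose by 0.47 ± 0.08 (adjusted p 1.73e-06) and was at -0.07 with no call in wild type (interaction 0.54 ± 0.11, adjusted p 0.000625). Other genes fell in H2A.Z-mCherry and had no call in wild type. The acetyltransferase gene EP300 (ENSDARG00000061108) was at -0.63 ± 0.09 (adjusted p 1.06e-07) in H2A.Z-mCherry and -0.06 in wild type (interaction adjusted p 0.00344). The cohesin loader gene NIPBL (ENSDARG00000098272) was at -0.66 ± 0.10 (adjusted p 5.17e-07) and 0.03 in the same order (interaction adjusted p 0.00119). The Wnt co-receptor gene LRP6 was at -0.42 ± 0.11 (adjusted p 0.00471) in H2A.Z-mCherry and 0.27 (adjusted p 0.067) in wild type (interaction adjusted p 0.00389). EP300, NIPBL and LRP6 were picked after their values were seen.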

How the data were processed

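Total RNA from whole embryos was sequenced in 12 libraries, of which the 6 of H2A.Z-mCherry embryos are described. The authors deposited raw read counts per Ensembl gene and library, without normalization. They also deposited a DESeq2 table for each genotype with a mean normalised signal, a log2 fold change with its error, a test score and p-values. The submitters' processing notes name STAR, featureCounts 2.0.3, DESeq2 1.22.2, deepTools and the build GRCz11, with no role or order. The sources used here name no strand setting, multimapping rule or annotation release, so values of close paralogs and overlapping genes are uncertain. Of the 32520 genes, 29201 had a symbol and 7468 had no count. Many symbols are in human style, and identifiers are printed where several genes share one.

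Counts were fitted in R 4.3.3 with edgeR 4.0.16. The filterByExpr function kept 12293 genes with 98.5% of counts. All 12 libraries entered 1 quasi-likelihood fit (TMM scaling, robust dispersions, 1 coefficient per group, common biological coefficient of variation 14.8%), so the groups share 1 estimate of the spread. Contrasts were 5AzadC minus DMSO in each genotype and their difference, the interaction. A gene is called where its p, adjusted by Benjamini and Hochberg over all tested genes, is under 0.05. Adjusted p-values come from edgeR where no other tool is given. The error after ± is the size of a log2 fold change divided by the square root of its F statistic. CPM use TMM-scaled library sizes. Folds against 0 counts are bounds from a floor of 3 counts over the group, and intervals are 95% exact binomial and, like the floor, cover counting error only. The scripts were tested on simulated counts.

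Genes named are the 12 largest rises and falls among called genes of at least 5 CPM with groups that do not overlap, up to 4 called members of each list by p, both H2A.Z genes, and the 8 strongest interaction genes in each direction. List members outside this rule were named after their values were seen. The members and lists were chosen with earlier results of these data known, so lists are described by counts and medians and were not tested. Some genes are not reported here. Gene span, promoter CpG and chromosome were not analysed here, since no annotation of the files' build was used. The numbers of the replicates did not pair the libraries (correlations of deviations from group means within 0.03 of 0 among pairs of the same number). Alternatives were DESeq2 1.42.0, upper quartile scaling, no filter, the 6 libraries alone, a replicate block and leaving out each library.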

Additional observations from a re-analysis of the deposited data

Results flagged for a closer look

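The interaction test compares the 5AzadC response in H2A.Z-mCherry with that in wild type. It called 461 genes, with further named genes among them, and 16 are described here. These 16 were named because their interaction p was among the 8 smallest in either direction, so the sizes below are a description. Values are the response in H2A.Z-mCherry minus that in wild type on the log2 scale, from 3 libraries in each of 4 groups.

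Higher responses in H2A.Z-mCherry were found for ADISSP (ENSDARG00000076239) at 1.11 ± 0.13 and asph (ENSDARG00000055945) at 1.21 ± 0.16, both of which rose in H2A.Z-mCherry and fell in wild type, as did the chromatin protein gene HMGB2 at 1.04 ± 0.16. The call of ADISSP in H2A.Z-mCherry alone was lost without DMSO replicate 2, 5AzadC replicate 1 or 5AzadC replicate 2 (adjusted p up to 0.16). FSTL1 (ENSDARG00000039576), for a secreted glycoprotein, was at 1.38 ± 0.18, UHRF1 at 1.06 ± 0.17 and the phosphatase gene PPP5C at 0.91 ± 0.14, and these 3 genes had no call in H2A.Z-mCherry and fell in wild type. The basement membrane collagen gene col4a6 was at 1.27 ± 0.18 and the transcription factor gene zbtb16b at 0.88 ± 0.14, with falls in both genotypes that were smaller in H2A.Z-mCherry.

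Lower responses in H2A.Z-mCherry were found for ftr86 at -2.66 ± 0.20, PTGS2 (ENSDARG00000010276) at -3.39 ± 0.36, JUNB (ENSDARG00000104773) at -3.36 ± 0.46 and the cell polarity gene crb2a at -1.98 ± 0.25, all of which fell in H2A.Z-mCherry and rose in wild type. The call of crb2a in H2A.Z-mCherry (-0.57 ± 0.19, adjusted p 0.0227) was lost without DMSO replicate 3, 5AzadC replicate 1 or 5AzadC replicate 2 (adjusted p up to 0.12). FOS was at -3.16 ± 0.40, cyt1l at -0.91 ± 0.12 and si:ch211-153b23.4 at -2.75 ± 0.38, with no call in H2A.Z-mCherry and a rise in wild type. TXNIP (ENSDARG00000036107) was at -1.20 ± 0.14, with a rise in both genotypes. Before any drug, si:ch211-153b23.4 had 30.8, 32.3 and 34.8 CPM in H2A.Z-mCherry and 6.96, 10.4 and 9.77 CPM in wild type, and cyt1l had 927, 792 and 861 CPM and 603, 632 and 569 CPM in the same order, so that for both genes every H2A.Z-mCherry library started higher. The part of these starting levels in the interaction was not tested.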

How the results depend on the processing

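The number of genes called in H2A.Z-mCherry was 2197 and ranged from 1389, without 5AzadC replicate 2, to 1932 when 1 library was left out, and from 1927 to 2276 under the other alternatives. With the replicate block it was 2128, and 432 for the interaction against 461 without it. The replicate numbers share no source in the labels and the libraries did not deviate together, so the block is no paired analysis. The interaction count ran from 317 to 562 when 1 library was left out and from 414 to 460 otherwise. No named gene with a call in H2A.Z-mCherry changed sign under any of these alternatives. Of the genes named here, UHRF1, which had no call in H2A.Z-mCherry, turned sign in 6 of them: -0.0031 with DESeq2, -0.0048 with upper quartile scaling, -0.0067 with the 6 libraries alone, and -0.078, -0.0037 and -0.021 when DMSO replicate 3, 5AzadC replicate 1 or 5AzadC replicate 3 was left out. Over the leave-one-out fits UHRF1 ran from -0.078 to 0.054. FSTL1, also without a call, ran from -0.057, without DMSO replicate 1, to 0.10, without DMSO replicate 2. The cause was not tested. Of 172 genes picked by the rule for named genes and called in H2A.Z-mCherry, 35 lost the call under at least 1 alternative. Genes named outside that rule, such as kat5b, BRD8, TRRAP and ZNHIT1, are not in this count. In 5 groups with 0 rises (AP-1 and immediate early genes, collagens, hox genes, neurons, skeletal muscle) 1 gene passed when 1 library was left out, DMSO replicate 1 for the first, 5AzadC replicate 3 for the last and 5AzadC replicate 1 for the others. The authors' deposited table for H2A.Z-mCherry called 1681 of the genes tested here, 1673 of them also called by edgeR. Fewer genes of low level were called, as the shares by level show, and depth was not varied.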

Other observations

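Among 208 tested solute carrier genes, which move small molecules across membranes, 14 rose and 9 fell, shares below those over all tested genes. The anion exchanger gene SLC4A2 (ENSDARG00000028173) had 44.6, 25.9 and 37.4 CPM with DMSO and 126, 163 and 174 CPM with 5AzadC, a rise of 2.14 ± 0.17 on the log2 scale (edgeR adjusted p 3.36e-17). The chloride cotransporter gene SLC12A7 had 15.4, 21.2 and 18.7 CPM with DMSO and 67.7, 50.7 and 43.2 CPM with 5AzadC, a rise of 1.51 ± 0.24 (adjusted p 1.19e-06), and in both genes the groups did not overlap. Without 5AzadC replicate 2 the count of rises was 6 and without DMSO replicate 1 it was 9, and without DMSO replicate 3 the count of falls was 5. Of 141 tested znf genes 3 rose (2.13%) and 9 fell (6.38%), shares also below those over all tested genes (8.84% and 9.03%). ZNF827 was at -1.13 ± 0.12 (adjusted p 1.49e-11), and without 5AzadC replicate 2 the count of falls in the group was 5.

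Among factors of the blastula and gastrula 3 of 28 rose (10.7%) and 1 fell (3.57%), against 8.84% and 9.03% over all tested genes. That 1 fall was lost without DMSO replicate 2 or 3 or 5AzadC replicate 1. The ventral homeobox gene vent had 61.6, 64.1 and 52.7 CPM with DMSO and 113, 111 and 118 CPM with 5AzadC, a rise of 0.93 ± 0.17 (adjusted p 2.92e-05), and pou5f3, the zebrafish Oct4 relative, had 8.10, 10.6 and 10.2 CPM with DMSO and 18.8, 28.9 and 25.5 CPM with 5AzadC, a rise of 1.34 ± 0.37 (adjusted p 0.00554). In neither gene did the groups overlap. Among 11 germ cell and piRNA genes 1 rose (9.09%, against 8.84% over all tested genes), CELF1 at 0.27 ± 0.10 (adjusted p 0.0356), and it did not pass with DESeq2 (adjusted p 0.055) or on leaving out any 1 of 4 libraries (DMSO replicates 1 and 3, 5AzadC replicates 2 and 3). Of 16 genes of heart and lateral plate mesoderm 2 fell (12.5%) and 1 rose (6.25%), against 9.03% and 8.84% over all tested genes. MEIS1 of that group had 214, 250.4 and 303 CPM with DMSO and 166, 151 and 158 CPM with 5AzadC, a log2 fold change of -0.69 ± 0.12 (adjusted p 8.71e-06). The falls in that group came to 1 without DMSO replicate 1 or 3 or 5AzadC replicate 1 or 3, and the rise was lost without DMSO replicate 2 or 5AzadC replicate 2.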
